A study of Mus musculus with 7 samples.

Results

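A set of 60 mouse genes of innate immune signalling and of macrophages was examined in the m6A peak tables of regenerating muscle and of C2C12 myoblasts. The genes were taken by symbol from a list whose rule uses no measured value, but which was drawn up with earlier results of these data known, and all 60 are among the 21900 protein-coding genes of the annotation used here. Of the 60, 29 had a peak in the muscle table, 13 had one in the C2C12 list, 9 of these were in both, and 27 were in neither. For muscle, 1 m6A IP library and 1 input library came from METTL3 cKO mice (Pax7CreERT2; METTL3 flox/flox) and 1 of each from control (CTL) mice (Pax7CreERT2; METTL3 wt/wt). All muscle came from mice of C57BL/6 background given tamoxifen and then cardiotoxin (CTX), at day 2 after the injury. Cre is driven by Pax7, so the deletion is aimed at muscle stem cells, and the age of the mice and the number pooled in a library are not given in the sources used here. The labels give muscle as the source of these libraries and muscle stem cell as their cell type, the methods speak of RNA from muscle cells, and whether cells were sorted is not given in the sources used here. CTX was injected into the tibialis anterior. C2C12 is a mouse myoblast line, and 2 m6A IP libraries and 1 input library were made from it. The labels call both C2C12 IP libraries knockout and their input normal, whereas the methods name no knockout for them. The labels also describe 3 days of differentiation in horse serum, without saying which C2C12 libraries it applies to.

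Toll-like receptors sense microbial and damage-derived molecules. On binding a ligand they recruit the adaptor MyD88 and kinases of the IRAK family, which act through TRAF6 and the IKK complex to free NF-kB from its IkB inhibitors. Interferon regulatory factors form another branch that drives interferon genes. Neutrophils and monocytes enter muscle soon after CTX injury, and the macrophages that arise from them clear debris and signal to muscle stem cells. m6A is placed on mRNA by the METTL3 and METTL14 complex, mostly in long internal exons, in last exons and near the stop codon, at sites that contain GGAC or a similar sequence.

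Each table gives 1 set of peaks over its libraries and no values per library, so no spread between replicates and no test could be had for any gene. The muscle table holds 5412 peaks, and all of them passed the authors' test for a difference between genotypes at FDR 0.05. A gene that is not listed in muscle may therefore have a peak of equal height in both genotypes. The C2C12 list holds 5433 peaks with positions only. Fold enrichment, the authors' ratio of IP to input for a muscle peak, had a median of 12.9, with quartiles of 5.00 and 48.3. It measures enrichment and not the level of an mRNA. The depth of the libraries is unknown.

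The share of members listed in muscle was 48.3% (29 of 60), against 16.9% of all protein-coding genes. In the C2C12 list, which is not limited to peaks that differ between the muscle genotypes, it was 21.7% (13 of 60), against 17.6%. Both tables held 9 of the 60 members (15.0%), beside 7.32% of all protein-coding genes. A muscle peak no weaker than the median peak, at 12.9, was found in 14 of the 60 members (23.3%), beside 10.1% of protein-coding genes. Rel (13.8) was the member just inside that median, and Msr1 (12) and Nlrc5 (11.7) were just outside.

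The members were divided by textbook expression into 21 genes largely restricted to leukocytes and the other 39. This division, too, was made with earlier results of these data known. The other 39 are not all genes of many cell types. They include Rel, Irf5, Irak3, Arg1 and Nos2, which are described below by their roles in blood cells or macrophages. Of the 21 leukocyte-restricted genes, 11 were listed in muscle (52.4%, Wilson interval 32.4 to 71.7, which covers counting error only) and 1 in C2C12 (4.76%, 0.846 to 22.7). Those in muscle were Tlr1, Tlr7, Tlr13, Spi1, Cd14, Mrc1, Msr1, Itgam, Ptprc, Fcgr1 and Fcgr3. The 1 listed in C2C12 was Cd14, the co-receptor that passes lipopolysaccharide to TLR4. The other 39 members were closer in the 2 tables, with 18 in muscle (46.2%, 31.6 to 61.4) and 12 in C2C12 (30.8%, 18.6 to 46.4). With muscle peaks below 12.9 removed, 5 of the 21 (23.8%) and 9 of the 39 (23.1%) were listed in muscle, beside 10.1% of all protein-coding genes. The C2C12 list gives positions only and could not be filtered in this way. In bulk RNA, fewer cells of a type and less RNA per cell cannot be told apart, and the part that cell makeup plays in these counts was not tested.

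**Figure D1:**
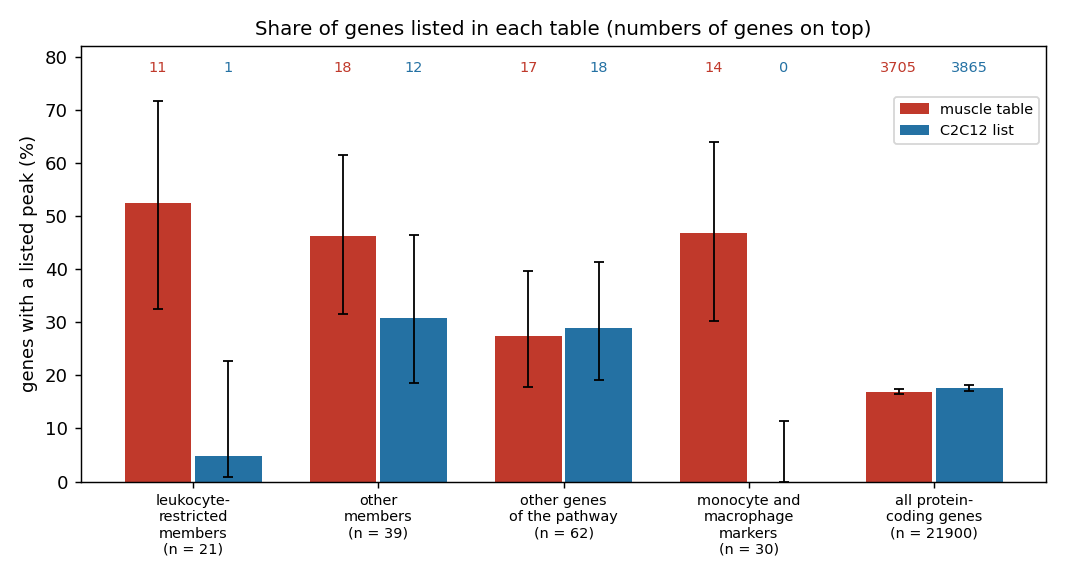
Percent of genes with at least 1 listed m6A peak (vertical axis) for 5 gene groups, in the muscle table (red) and the C2C12 list (blue), with 95% Wilson intervals that cover counting error only and with the number of genes listed printed above. The leukocyte-restricted members stand at 52.4% in muscle and 4.76% in C2C12, and the monocyte and macrophage markers outside the set at 46.7% and 0, while all protein-coding genes stand at 16.9% and 17.6%. Muscle peaks are only those that differed between genotypes, whereas the C2C12 list gives positions of called peaks.

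The labelled cell types were set against marker genes, and how far each gene is restricted to its cell type was not tested. The marker lists here and below were drawn up with earlier results of these data known. Their counts are therefore not independent support for a contrast between the 2 tables. Of 30 genes outside the set taken as monocyte and macrophage markers, 14 were listed in muscle (46.7%) and 0 in C2C12. The shares of all protein-coding genes were 16.9% and 17.6%. The count of 0 allows a share of up to 10.0% in C2C12, taken as 3 counts over 30 genes. The upper bound of the Wilson interval is 11.4%. The median of the strongest peaks of the 14 was 4.39, and 5 of the 14 were above 12.9. These 5 were Ccr2, the receptor that brings monocytes into tissue, with a fold enrichment of 16.5, Mpeg1 (20.1), Cd84 (19.9), Dock2 (20.5) and Lyn (29.2). The other 9 lay between 2.16 (Siglec1) and 9.90 (Vav1), with the complement genes C1qb and C1qc at 2.84 and 3.16. Csf1r, the receptor that macrophages need to survive, was not listed. Of 12 myogenic markers, 8 were listed in muscle (66.7%, beside 16.9%) and 5 in C2C12 (41.7%, beside 17.6%), with Pax7, Myod1 and Des in both. Of the macrophage surface and lysosomal markers in the set, Cd14 and Cd44 were in the C2C12 list as well as in muscle, and Cd44 is expressed by many cell types.

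Sequence under a muscle peak could be read only where a peak reaches a RefSeq promoter window (GRCm38.p6), which ends 50 bases after a transcription start site (TSS). The muscle peaks of 4 members do so, those of Myd88, Cebpa, Cebpb and Irf3. A GGAC site of the authors' table lies inside the window for Myd88 alone, and it is shown because its peak begins at the first base of the gene. The 30 bases around it, chr9:119339974-119340003 on the minus strand, are given with the GGAC site in capitals.
Myd88: aggcgagcgtactGGACggcaccgggggcc
The first 50 transcribed bases of Cebpa, Cebpb and Irf3 hold no GGAC on the transcript strand, and 18.9% of all 32851 windows hold one there. Over all genes, the window read GGAC at 80 of the 92 listed sites that fall inside one, with the motif starting at most 2 bases before the listed position.

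Toll-like receptors were listed in muscle for 4 of the 7 members (57.1%, Wilson interval 25.0 to 84.2), beside 16.9% of all protein-coding genes. Tlr13, which senses bacterial ribosomal RNA inside the cell, had a pair of coding peaks, chrX:106156796-106158614 and chrX:106158734-106160493 on mm10. Their fold enrichments were 43.2 and 166, and the gap between them was 119 bp, so they lie nearly end to end over 3579 bp with 11 GGAC sites. Tlr1, a surface partner of TLR2 for lipopeptides, had a coding peak of 957 bp (chr5:64924709-64925665) with a fold enrichment of 38.6 and 5 GGAC sites. Tlr7, an endosomal sensor of single-stranded RNA, had a coding peak of 1073 bp (chrX:167304929-167306001) with a fold enrichment of 20.7 and 2 sites. All 4 peaks of these leukocyte-restricted receptors were in coding sequence and above the median of all peaks. Tlr4, the lipopolysaccharide receptor, was different, with a 3′UTR peak of 210 bp (chr4:66842488-66842697) at a fold enrichment of 8.40. In C2C12, Tlr4 had a peak of 388 bp in a coding exon and Tlr2 had 1 of 283 bp. Tlr8 and Tlr9 were in neither table.

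The adaptors and kinases next to the receptors had weaker peaks, apart from Irak2. Myd88 had peaks of 240 bp at its 5′ end (fold enrichment 5.47, 4 GGAC sites) and of 150 bp (2.44, 2 sites), both annotated only as exon. With 16.7 sites per 1000 bp, the first of these had the densest GGAC of the members' 40 peaks, beside 4.63 per 1000 bp over all muscle peaks. Irak2, a kinase that sustains signalling after IRAK4, had a 3′UTR peak at 71.7 (chr6:113693064-113694549, 8 sites), and another at 6.15 that starts 59 bp after it. Irak1 had a 3′UTR peak at 3.19 with 1 site. Irak2 and Irak1 were also in the C2C12 list, Irak2 with the longer peak, of 817 bp. Irak3, which damps the pathway in macrophages, and Irak4 were in neither table. Among the TRAF adaptors, Traf3 was listed in muscle alone, with 3′UTR peaks at 7.20 and 3.82, and Traf2 and Traf6 in C2C12 alone. The Traf6 peak, in a coding exon, covered 927 bp and was the longest of the 15 C2C12 peaks of the members. Traf1 was in neither table.

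NF-kB subunits were listed for 2 of 5 in muscle, with a Wilson interval of 11.8 to 76.9% that covers the 16.9% background. In C2C12 they were listed for 0 of 5, which allows a share of up to 60% and so does not separate them from the 17.6% background. Rela, which carries the main activation domain of NF-kB, had a coding peak (fold enrichment 15.3, 1 site) and a 3′UTR peak (16.3, 5 sites) with 89 bp between them, on chromosome 19 from 5646847 to 5647772. Rel, the subunit used most by blood cells, had a 3′UTR peak of 151 bp at 13.8 with no GGAC site. These 3 peaks lie just above the median of all peaks. Nfkb1, Nfkb2 and Relb were in neither table, and neither were the kinases Ikbkb and Tbk1.

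Among the inhibitors, Tnfaip3 stood apart. It encodes A20, which edits ubiquitin chains to end NF-kB signalling, and its main peak (chr10:19001749-19003898) had a fold enrichment of 199, rank 444 of the 5412 peaks. The other Tnfaip3 peak, 208 bp from it, had a fold enrichment of 4.42, and both were annotated only as exon. Tnfaip3 was also in the C2C12 list, with a coding peak of 367 bp and a 3′UTR peak of 475 bp. Nfkbiz, a nuclear IkB protein, had a 3′UTR peak at 2.11 in muscle, at percentile 4.34 of all peaks. Nfkbia, Nfkbib, Nfkbie and Tnip1 were in neither table. Of the NLR sensors, Nlrc5, an activator of MHC class I genes, was listed in muscle alone (3′UTR, 11.7, 4 sites), Nod1 in C2C12 alone (a coding peak of 242 bp), and Nlrp3 in neither.

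Interferon regulatory factors were listed for 3 of 7 in muscle and 0 of 7 in C2C12, which allows a share of up to 42.9%. The Wilson interval in muscle, 15.8 to 75.0%, covers the 16.9% of all protein-coding genes. The C2C12 bound lies above the 17.6% of all protein-coding genes. Irf5, which drives inflammatory genes in macrophages, had the strongest peak, in its 3′UTR (chr6:29536597-29537046) with a fold enrichment of 70.3 and 2 sites. Its coding peak, spread over 4 exon blocks, had a lower fold enrichment of 8.49 but 7 sites. Irf3 had a 5′UTR peak at 5.55 with no GGAC site, and Irf7 an exon peak at 5.02 with 1. Irf1, Irf2, Irf8 and Irf9 were in neither table.

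The transcription factors of myeloid cells were listed for 4 of 4 in muscle, and all but Spi1 in C2C12. With so few genes the Wilson intervals are wide, 51.0 to 100% in muscle and 30.1 to 95.4% in C2C12. The shares of all protein-coding genes were 16.9% and 17.6%. Cebpb, which acts in both macrophage activation and myoblasts, had a peak over 99.1% of the gene (chr2:167688915-167690418) with 9 GGAC sites. Its fold enrichment of 1230 was rank 12 of 5412 and the highest among the members. Cebpa had a peak of 2157 bp at 132 with 11 sites (chr7:35119293-35121449), and Cebpd one of 1259 bp at 122 with 7 sites (chr16:15887286-15888544). These C/EBP peaks start at the first base of the annotated gene and cover 55.7% to 99.1% of it. Spi1 encodes PU.1, which macrophages require, and had a short peak annotated as 5′UTR (chr2:91096692-91096902) at 21.0 with 1 site. That peak lies 14318 to 14528 bp from the first base of the annotated gene span of Spi1. The first base of the span need not be the start of the transcript that carries the peak.

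The macrophage surface and lysosomal markers were listed for 8 of 15 in muscle (53.3%, beside 16.9% of all protein-coding genes), mostly with weak peaks. Cd14 was the exception, with a fold enrichment of 194 over 86.5% of its gene and 7 sites. The scavenger receptor Msr1 had 3 peaks in its 3′UTR, at 12, 4.77 and 3.47. The other 6 lay below the lower quartile of all peaks by fold enrichment. They were Fcgr1 (3′UTR, 3.81), Ptprc (exon, 3.28), Cd44 (CDS, 2.90), Itgam (3′UTR, 2.81 and 1.90), Fcgr3 (3′UTR, 2.75) and the mannose receptor Mrc1 (CDS, 1.73 and 1.55). The median over the 8 strongest peaks was 3.09, beside 19.8 over all listed genes. The 14 macrophage markers outside the set had a median of 4.39, and none of their strongest peaks reached the upper quartile of all peaks. Cd68, Cd163, Lyz2, Itgb2, Clec7a, Trem2 and Adgre1 were in neither table. Of the arginine enzymes that mark alternative and classical activation of macrophages, Arg1 had a coding peak at 27.0 with 2 sites and Nos2 was in neither table.

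**Figure D2:**
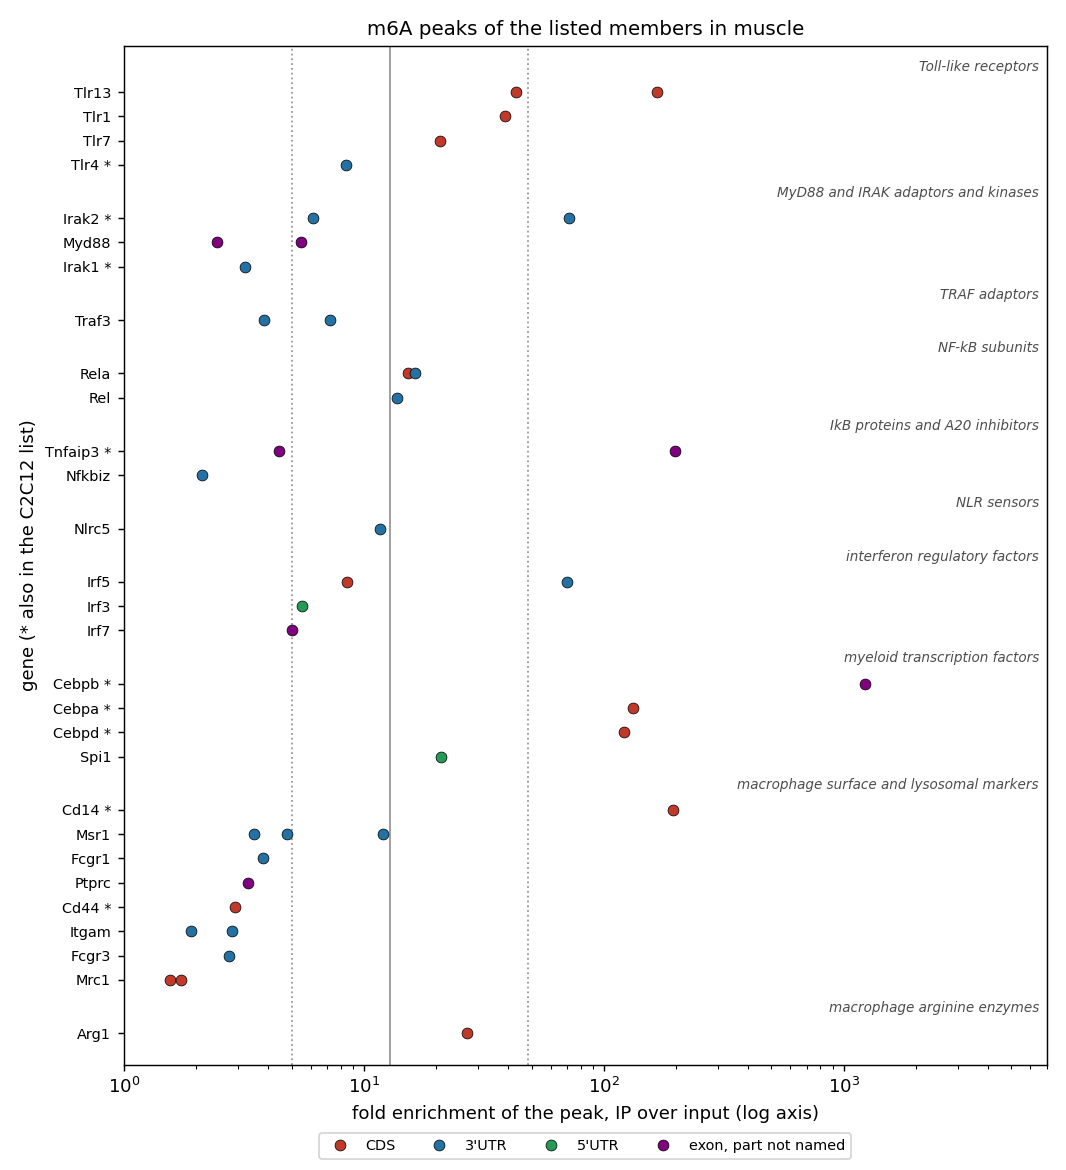
Fold enrichment, the ratio of IP to input (horizontal axis, log scale), of the 40 muscle peaks of the 29 listed members, grouped by role, with 1 point per peak coloured by annotation. The solid line is the median of all 5412 muscle peaks (12.9), the dotted lines are the quartiles (5.00 and 48.3), and an asterisk marks genes also in the C2C12 list. The C/EBP genes, Cd14, Tnfaip3 and Tlr13 reach above 100, and most surface markers lie below the lower quartile.

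Over the 29 listed members the median fold enrichment of the strongest peak was 12, below the 19.8 of all listed genes, and 15 of the 40 peaks (37.5%) were under 5, beside 24.9% of all peaks. Members in both tables had a median of 122 (range 2.90 to 1230, n = 9), and members in muscle alone 9.45 (range 1.73 to 166, n = 20). The same order held over all protein-coding genes, at 39.7 for 1602 genes in both tables and 13.3 for 2103 in muscle alone. The median genomic length of the members listed in muscle was 15740 bp, close to the 17146 bp of all protein-coding genes, whereas the protein-coding genes listed in muscle had a median of 28950 bp. Members not listed there had a median of 23222 bp.

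The annotation of the members' peaks was close to that of all peaks, with 18 of 40 in the 3′UTR (45.0%, against 48.0%), 13 in the CDS (32.5%, against 31.9%), 7 as exon and 2 in the 5′UTR. More than 1 peak was listed for 10 of the 29 members (34.5%), beside 25.7% of all genes in the muscle table. At least 1 GGAC site was given for 30 of the 40 peaks (75.0%, Wilson interval 59.8 to 85.8), beside 70.6% of all peaks. The density was 5.01 sites per 1000 bp against 4.63. Among member peaks with a fold enrichment no lower than 12.9, 15 of 16 had a site (93.8%, beside 85.8% of all such peaks), and Rel was the exception. Of the weaker peaks, 15 of 24 did (62.5%), beside 55.2% of all such peaks.

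Peak length went with fold enrichment among the members as it did in the table. The 8 peaks of at least 1000 bp all lay at or above the median of all peaks (range 20.7 to 1230), and 97.1% of all 798 peaks of that length did. Of the 32 shorter peaks 8 did (25.0%), beside 42.0% of the 4614 shorter peaks in the table. The long peaks belong to Cebpa, Cebpb, Cebpd, Cd14, Tnfaip3, Tlr7 and Tlr13. What part of the fold enrichment the length accounts for was not tested.

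**Figure D3:**
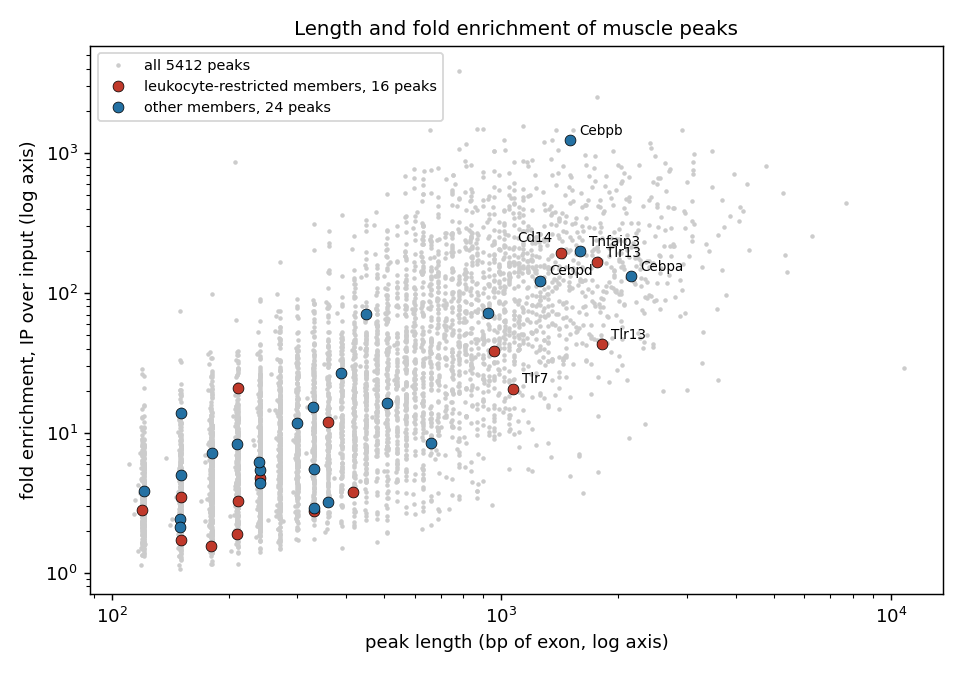
Length in bp of exon sequence (horizontal axis, log scale) and fold enrichment of IP over input (vertical axis, log scale) of each muscle peak. All 5412 peaks are grey, peaks of leukocyte-restricted members red and those of other members blue. Peaks of at least 1000 bp carry gene names, and all 8 of them lie at a fold enrichment of 20.7 or higher.

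For the 9 members in both tables, peak positions were compared as distances from the TSS, since the C2C12 positions are on a build other than mm10. In 8 of the 9 a C2C12 peak overlapped a muscle peak on this scale, and in all 1592 protein-coding genes compared the share was 55.2%. The single C2C12 peak of Cd14, centred 609 bp from the TSS, lay within the muscle peak, which runs from 79 to 1593 bp. In Cebpb, C2C12 peaks centred at 819 and 1173 bp lay within a muscle peak from 0 to 1503 bp, and the single peaks of Cebpa (1214 bp) and Cebpd (842 bp) likewise. The muscle peaks of these genes span most of the transcript, so that almost any peak there would overlap. Short peaks also met. In Cd44, the hyaluronan receptor, the C2C12 peak was centred 87459 bp from the TSS and the muscle peak ran from 87350 to 87680 bp. In Irak1 they were at 8644 bp and at 8485 to 8843 bp, although the C2C12 list annotates its peak as intron and the muscle table as 3′UTR. The C2C12 peak of Irak2, at 55519 bp, lay within its strong 3′UTR peak. In Tnfaip3 the 3′UTR peak at 12869 bp lay within the main muscle peak, and the coding peak at 10718 bp lay outside it. Tlr4 was the exception, with 1078 bp between its C2C12 peak at 13665 bp and its muscle peak at 14937 to 15146 bp. Of the 4 members in C2C12 alone, Tlr2, Traf6 and Nod1 had a peak in a coding exon and Traf2 a peak of 218 bp in the 3′UTR.

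**Figure D4:**
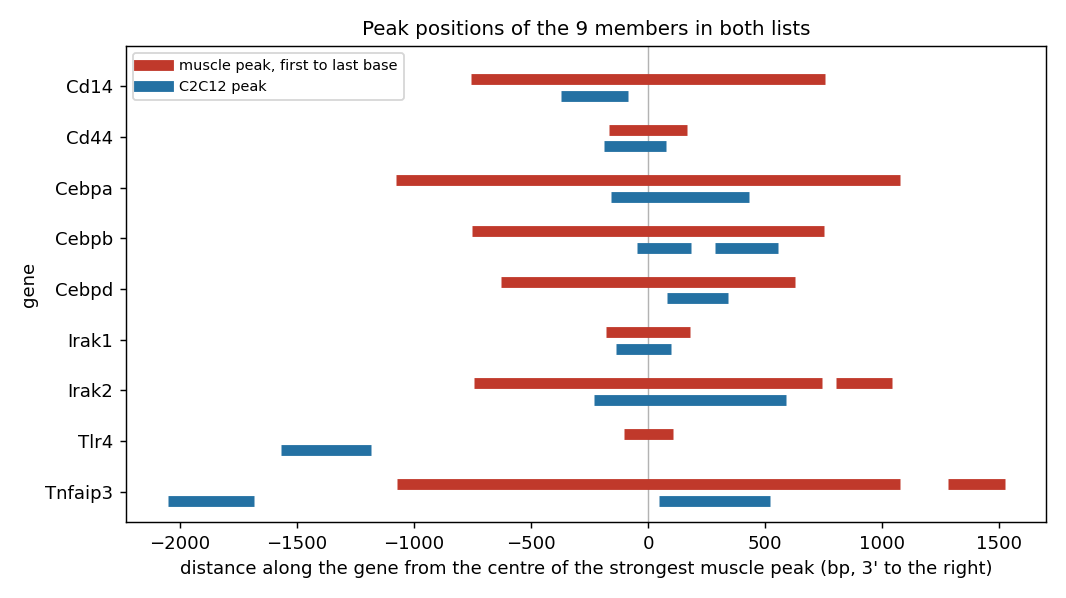
Peaks of the 9 members found in both tables, with distance along the gene in bp from the centre of the strongest muscle peak on the horizontal axis and the 3′ end to the right. Red bars run from the first to the last base of a muscle peak, introns included, placed from the 5′ edge of the annotated gene. Blue bars show C2C12 peaks, placed by the authors' distance from the TSS. Blue and red bars overlap in every gene but Tlr4.

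Of 62 other genes of the pathway, 17 were listed in muscle (27.4%) and 18 in C2C12 (29.0%), with 7 in both (11.3%). The shares of all protein-coding genes were 16.9%, 17.6% and 7.32%. The subgroups are small, with shares from 11.1% to 57.1% in muscle and from 0 to 71.4% in C2C12. Some of these lie near the shares of all protein-coding genes, and no difference was tested. Receptors and co-receptors were listed for 2 of 10 in muscle and 0 of 10 in C2C12, which allows a share of up to 30%. The receptors in muscle were Tlr6 (160), the other surface partner of TLR2, and Cd180 (82.4), a relative of TLR4 on B cells and macrophages. Among adaptors and kinases 6 of 20 were in muscle, including Tab1 (345), Ticam1 (302), Peli1 (98.0) and Tirap (87.9), and 8 were in C2C12, namely Ticam1, Tab1, Tab2, Map3k7, Ripk2, Ikbkg, Traf4 and Tank. The cytosolic sensors were listed for 4 of 16 in muscle, among them Nod2 (36.9) and the adaptor Tmem173 (30.1), which is STING. In C2C12 they were Mavs and Nlrx1, both mitochondrial. NF-kB inhibitors and cofactors had 1 of 9 in muscle, N4bp1 (9.30), and 3 in C2C12, N4bp1 with the deubiquitinases Cyld and Otulin. Of the interferon factors, Irf2bp1 (818) and Stat2 (161) were listed in both tables, and Irf2bpl in C2C12 alone, with 3 peaks.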

How the data were processed

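Muscle and C2C12 m6A MeRIP-Seq libraries were grouped by the sample labels. The submitters' processing notes name TopHat, MACS2 and mm10, with no role or version. The authors deposited 1 muscle table, whose fold enrichment is a ratio of IP to input with 1 value per peak over the libraries, and 1 C2C12 list of positions. Its columns of differential fold changes, p-values and FDR hold the authors' comparison of the genotypes. They were not used, except to test that all muscle peaks passed FDR 0.05. The number of unused columns with values of 1 sample was 0.

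Members and gene lists were chosen with earlier results of these data known. The text gives full values for members whose strongest peak was no weaker than the median peak, with several peaks, in both tables or in C2C12 alone, and names the rest. Of other pathway genes and markers, those at or above the upper quartile of fold enrichment or in C2C12 could be named. Markers below it, and the pathway genes Nod2 and Tmem173, were named after their values were seen. Genes were matched to RefSeq (GRCm38.p6) by symbol, older symbol or, in C2C12, transcript. This matched 3811 of 3983 muscle genes (95.7%) and 3967 of 3970 C2C12 genes. Of the members' muscle peaks 40 of 40 lie inside the mm10 span of their gene, and of their C2C12 peaks 2 of 15. C2C12 distances refer to the peak centre, as in 1413 of 1413 pairs of peaks of 1 gene within 1 bp. Starts were converted to count from 1. A gene was represented by its strongest peak. Intervals are 95% Wilson intervals. Naming and counting were checked on 3 planted lists, all recovered in full. Python 3.11.15, pandas 2.3.3, numpy 2.4.6, scipy 1.17.1 and matplotlib 3.10.9 were used. A result that needs an item withheld for evaluation is not reported here.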

Additional observations from a re-analysis of the deposited data

How the results depend on the processing

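Matching by exact symbols left 29 members in muscle and 13 in C2C12, and keeping only peaks annotated to the UTRs or coding sequence left 24 and 12. With muscle peaks below the median fold enrichment removed, the muscle table held 14 of 60 members and 5 of 21 leukocyte-restricted members, and the GGAC share of the members' peaks was 93.8%. With peaks below the upper quartile removed, 8 members were left, beside 1183 of all 21900 protein-coding genes. These were 2 of the 21 leukocyte-restricted members and 6 of the other 39. With the 14 macrophage surface and lysosomal markers other than Cd44 in place of the leukocyte-restricted members, 7 were listed in muscle and 1 in C2C12. Over all 49997 annotated genes the background was 7.61% in muscle and 7.93% in C2C12, as the added genes are not protein-coding. The median fold enrichment of the members was 11.7 with the mean over the peaks of a gene and 11.7 with the longest peak, and the GGAC share was 79.3% with the strongest peaks alone. Leaving out each C2C12 IP library could not be run. No paired analysis was possible because each genotype has 1 library of each kind and both tables give 1 value or position per peak. As the depth is unknown, no counting error could be given for any fold enrichment.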

Other observations

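Markers of other cell types were counted in both tables, beside 16.9% of all protein-coding genes in muscle and 17.6% in C2C12. Of 10 neutrophil markers, 3 were listed in muscle and 0 in C2C12. The listed neutrophil markers were Csf3r (fold enrichment 76.2), the receptor for the growth factor that neutrophils depend on, Cxcr2 (24.6), their main chemokine receptor, and Mmp9 (6.00). S100a8, S100a9, Ly6g, Retnlg, Mmp8, Ltf and Ngp were in neither table. Of 10 lymphocyte markers none was listed in either table. Endothelial markers were listed for 3 of 10 in muscle, Cldn5 (408), Cdh5 (155) and Flt1 (5.85), and for 0 in C2C12. These counts, and so their intervals, equal those of the neutrophil markers. Pecam1, Kdr, Tek, Tie1, Vwf, Emcn and Egfl7 were in neither table. Fibroblast markers went the other way, with 2 of 10 in muscle and 5 in C2C12, among them Pdgfra and Col1a1 in both and Pdgfrb, Col1a2 and Col3a1 in C2C12 alone. No difference between these counts was tested.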
